A study of Arabidopsis thaliana with 12 samples.

Results

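The nuclear genes of the photosynthetic apparatus of *Arabidopsis thaliana* described here encode 4 photosystem subunits or assembly proteins and 1 antenna protein: *PSAN* (AT5G64040), *LHCB1.5* (AT2G34420), *PSBW* (AT2G30570), *PSB27* (AT1G03600) and *PSBY* (AT1G67740). They were chosen as photosystem and LHCB1 genes with a probe that the platform annotation assigns to them alone. They are 5 of the 691 genes with such a probe. The choice was made with earlier results of these data known. Total RNA was measured on 12 arrays, 6 titled WT and 6 titled stn8. The WT is ecotype Columbia 0. STN8 is a thylakoid protein kinase whose main substrates are core proteins of photosystem II, and the sample description ties the mutant to state transitions. The comparison asks how transcript levels differ between mutant and WT. The groups rest on the titles alone, because the source field of all 12 samples gives WT. Allele, tissue, age, light and growth conditions are not given in the sources used here.

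Photosystem II takes electrons from water and passes them through the thylakoid electron transport chain to photosystem I, and each photosystem is surrounded by chlorophyll-binding antenna proteins. The reaction centre proteins are made in the chloroplast, whereas the small and peripheral subunits, the antenna and most assembly proteins are encoded in the nucleus and imported. In Arabidopsis leaves the nuclear genes for these proteins are among the most strongly transcribed, and their transcripts respond to light and to the state of the chloroplast.

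Intensities are the authors' deposited values on a linear scale. Array medians lay between 0.297 and 0.369, and the highest spot of an array was at 166 to 193 in WT and 84.4 to 93.9 in stn8. Most probes differed between the groups. In the limma fit on quantile-normalized log2 values, 70.4% of 3437 probes had an adjusted p under 0.05, and the median coefficient of variation per probe within a group was 16.3% in WT and 11.6% in stn8 over the 3079 probes above 0 on all arrays. WT arrays 5 and 6 were less like the other 4 WT arrays: across these probes, which are not independent replicates, Pearson's r of log2 intensity was 0.928 to 0.943 between these sets and at least 0.971 among the other 4. *STN8* had no probe of its own, so the genotype could not be checked from its transcript. Of 6 markers of seed and epidermis 0 had a probe of their own, so the tissue could not be checked either. Nothing says that the 6 numbered samples of a group came from separate plants, so the p-values describe array-to-array spread that could be technical.

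All 5 genes passed the test lower in stn8, against a background of 35.8% of probes called lower, and 4 of the 5 changed at least 2-fold in the fit, against 17.6%. The count called lower was 4 without normalization, with median centring and with adjacent arrays as a random block, where *PSBY* lost its call. On the deposited scale 3 genes changed at least 2-fold, since the ratio of means was 1.97 for *PSB27*. The share of all probes at least 2-fold lower on that scale was not computed. The 6 stn8 intensities lay entirely below the 6 WT intensities for 4 of the 5 genes, against 27.0% of probes. The median log2 fold change was -2.71 over the 5 genes, 0.08 over the 692 probes naming 1 gene and 0 over all probes. Since the 5 genes were chosen with earlier results of these data known, these contrasts with all probes are descriptive only. The sizes spanned a wide range, from about 11.1% of the WT mean intensity for *PSAN* to 97.9% for *PSBY*. In bulk RNA, fewer cells of a type and less RNA per cell cannot be told apart.

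**Figure D1:**
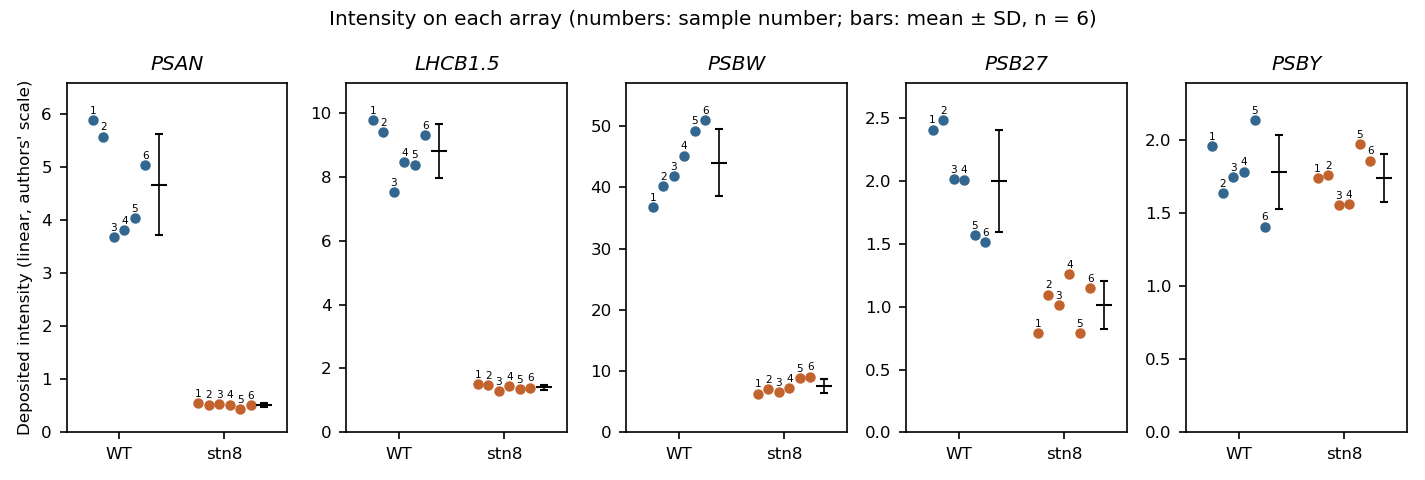
Deposited intensity (linear, the authors' scale) of the 5 genes on each array, WT in blue and stn8 in orange, numbered by sample, with the mean and SD of each group of 6 in black. The groups are apart for *PSAN*, *LHCB1.5*, *PSBW* and *PSB27*, while the 6 stn8 points of *PSBY*, from 1.55 to 1.97, lie inside the WT range of 1.41 to 2.14.

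*PSAN* encodes a small subunit of photosystem I on the lumenal side of the thylakoid, where plastocyanin docks to deliver electrons. Its intensity in WT was lowest at 3.69, with a median of 4.54 and a highest value of 5.90. In stn8 the lowest value was 0.443, the median 0.525 and the highest 0.556. Even the lowest WT array stood 6.64-fold above the highest stn8 array. Within WT, arrays 1, 2 and 6 were above 5 and arrays 3, 4 and 5 near 4, so that the WT spread (coefficient of variation 20.4%) exceeded that of stn8 (7.45%). The fitted log2 fold change was -3.42 ± 0.13 (SE, 6 against 6 arrays, limma adjusted p = 7.83e-10). Among all 3437 probes, 101 (2.94%) had a fitted value as low.

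*LHCB1.5* belongs to the LHCB1 genes, which encode the major chlorophyll a/b-binding protein of the photosystem II antenna, a trimeric complex that moves between the photosystems in state transitions when it is phosphorylated, mainly by the related kinase STN7. WT intensities ran from 7.51 through a median of 8.87 to 9.77. Those of stn8 ran from 1.28 through 1.42 to 1.502. The groups were separated by a factor of 5.003 between the nearest arrays, and this gene varied little within either group, by 9.52% in WT and 5.94% in stn8. Its mean in stn8 was 16.04% of that in WT, and the fitted log2 fold change was -2.99 ± 0.07 (SE, limma adjusted p = 1.33e-11). Of 5 listed LHCB1 loci this was the 1 with a probe of its own. The neighbouring locus AT2G34430 (*LHCB1.4*) is a close copy, and whether the probe also binds transcripts of LHCB1 copies is not given in the sources used here, so the value may be that of several LHCB1 genes.

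*PSBW* encodes a small membrane-spanning subunit of photosystem II that helps hold the core and its antenna together in larger complexes. It was at 36.7 on the lowest WT array, 43.5 at the median and 51.0 on the highest. In stn8 it was at 6.35, 7.12 and 9.12. Arrays 5 and 6 gave the highest values of their group in both WT and stn8, and the nearest arrays of different groups remained 4.03-fold apart. The mean fell to 17.1% of WT, with a fitted log2 fold change of -2.71 ± 0.10 (SE, limma adjusted p = 4.75e-10). On the deposited scale the coefficient of variation was 12.4% in WT and 15.5% in stn8. After normalization the SD of this gene was 0.06 in WT and 0.24 in stn8 on the log2 scale. Among all probes 99.5% were dimmer, and at such ranks quantile normalization leaves few possible values. WT arrays 1 and 2 were both set to 5.36 and WT arrays 4 and 5 both to 5.49.

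*PSB27* encodes a lumenal protein that binds photosystem II during its assembly and repair and is absent from the finished complex. WT intensities were 1.51 at the lowest, 2.01 at the median and 2.48 at the highest. The stn8 intensities were 0.790, 1.05 and 1.26. This was the narrowest separation among the 4 genes without overlap, with only 1.204-fold between the lowest WT and the highest stn8 array. WT arrays 1 and 2 averaged 2.44, arrays 3 and 4 averaged 2.01 and arrays 5 and 6 averaged 1.54. The values within each of these WT pairs differed by at most 0.0772. In stn8 the same pairs averaged 0.943, 1.13 and 0.968, but the values within them differed by 0.247 to 0.353. The mean in stn8 was 50.8% of WT and the fitted log2 fold change was -1.23 ± 0.16 (SE, limma adjusted p = 2.38e-05). The fitted change was -1.39 without WT arrays 5 and 6.

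*PSBY* encodes a low-molecular-mass membrane subunit of photosystem II that sits beside cytochrome b559. On the deposited scale its groups could not be separated. The WT values were 1.41 at the lowest, 1.77 at the median and 2.14 at the highest, and all 6 stn8 values, from 1.55 through 1.75 to 1.97, fell inside that range. An exact two-sided permutation test of the log2 intensities, 6 against 6, gave p = 0.812 for a difference of -0.02. After quantile normalization the mean log2 value was 0.96 ± 0.20 (SD, n = 6) in WT and 0.65 ± 0.12 in stn8, and the fitted difference was -0.31 (95% confidence interval -0.51 to -0.10, limma adjusted p = 0.0122). The 90th percentile of intensities, near which this probe lies, was 1.47 to 1.51 on WT arrays and 1.80 to 1.85 on stn8 arrays, and quantile normalization sets these equal. Among all probes, 1322 of 3437 probes (38.5%) had a fitted value as low. With median centring the difference was -0.08 (limma adjusted p = 0.585). With adjacent arrays of a group taken as a random block the fold change was the same and the call was lost (limma adjusted p = 0.127).

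**Figure D2:**
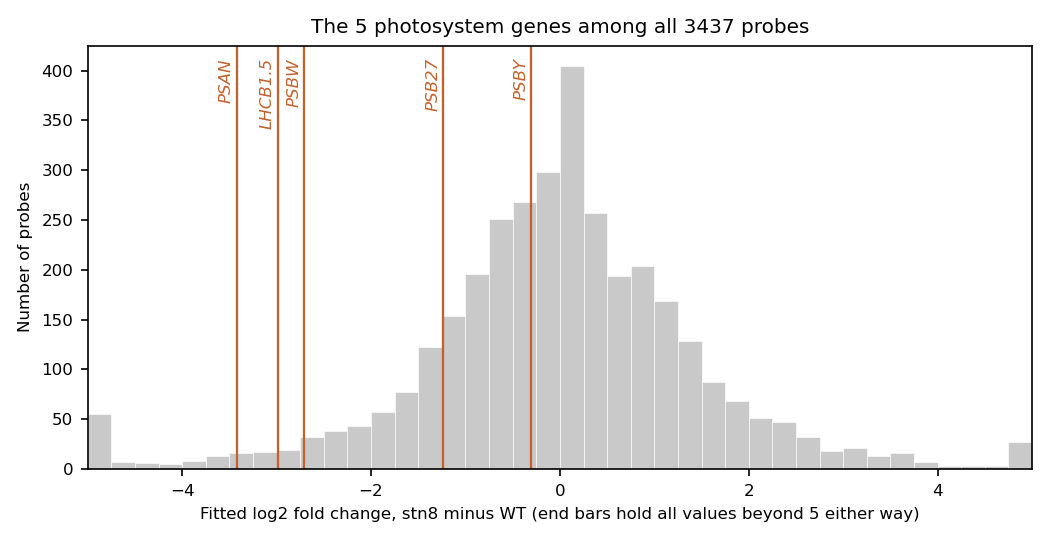
Histogram of the fitted log2 fold change (stn8 minus WT) of all 3437 probes, with the 5 genes as vertical lines, and with 50 probes below -5 and 23 above 5 gathered in the end bars. *PSAN* (-3.42), *LHCB1.5* (-2.99) and *PSBW* (-2.71) lie in the lower tail, *PSB27* (-1.23) on the lower flank and *PSBY* (-0.31) near the centre.

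All 5 probes were among the 33.3% brightest by mean normalized value, where 40.9% of 1146 probes were called lower. Within 4 spot numbers of *PSAN* lay a spot with a mean of 3.31 in WT and 10.9 in stn8. The corresponding spot was at 2.12 in WT and 14.9 in stn8 for *LHCB1.5*, and at 3.92 and 21.3 for *PSBW*. For *PSB27* the brightest such spot in stn8 was at 0.601 in WT and 2.05 in stn8, and for *PSBY* it was at 3.64 in WT and 1.80 in stn8. The 3 genes with the largest falls were those with a spot above 10 in stn8 within 4 spot numbers. The share of all probes with such a spot was not computed. Spot numbers were not checked against positions on the array. The part of these spots in the results was not tested.

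The question whether the 5 genes changed by different amounts was addressed with their ratios on the same array. A scaling of the whole array by 1 factor cannot alter these ratios, but a scaling that depends on intensity can. The 90th percentile was 1.47 to 1.51 on WT arrays and 1.80 to 1.85 on stn8 arrays, while the highest spot was lower in stn8. The part of such scaling in the ratios was not tested. All 10 pairs were compared with exact two-sided permutation tests on log2 ratios of deposited intensities, 6 arrays against 6, for which the smallest possible p is 0.00216, and p-values were adjusted over the 10 pairs by the Benjamini-Hochberg method. The ratio differed between stn8 and WT for 9 of the 10 pairs. The share among pairs of other probes was not computed. In the limma fit 70.4% of all probes differed between the groups, but that share counts single probes. Whether the count of pairs is particular to these genes is therefore not known.

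*PSAN* fell more than each of the other 4 genes. The log2 ratio of *PSAN* to *LHCB1.5* was -0.93 ± 0.17 (SD, n = 6) in WT and -1.45 ± 0.12 in stn8, a difference of -0.52 (95% interval -0.71 to -0.34, exact p = 0.00216, adjusted p = 0.00309). The ratios of the 2 groups did not overlap. Against *PSBW* the difference was -0.60 (95% interval -1.08 to -0.13, exact p = 0.00866, adjusted p = 0.00962), with overlapping ratios.

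*LHCB1.5* and *PSBW* were the pair whose ratio did not pass. Their log2 ratio was -2.32 ± 0.26 (SD, n = 6) in WT and -2.40 ± 0.25 in stn8. The difference was -0.08 with a 95% interval of -0.42 to 0.25 (exact p = 0.576, adjusted p = 0.576), so changes that differ by an amount within that interval could not be told from equal ones. On quantile-normalized values the difference was larger, -0.28, and did not pass (exact permutation test, adjusted p = 0.0714).

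*PSB27* and *PSBY*, the photosystem II genes with smaller changes, differed from the former 3 by wide margins. The ratio of *LHCB1.5* to *PSB27* changed by -1.66 on the log2 scale and that of *PSBW* to *PSB27* by -1.58, both without overlap between the groups. The ratio of *PSBW* to *PSBY* changed by -2.53 (95% interval -2.83 to -2.24), although both encode small membrane subunits of the same complex. *PSB27* itself fell relative to *PSBY*, by 0.95 on the log2 scale (95% interval -1.40 to -0.50, exact p = 0.00433, adjusted p = 0.00541), with overlapping ratios. With adjacent arrays averaged (1 with 2, 3 with 4, 5 with 6), the 3 ratios of each group did not overlap for the same 9 pairs, but 3 against 3 cannot give an exact p below 0.1.

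**Figure D3:**
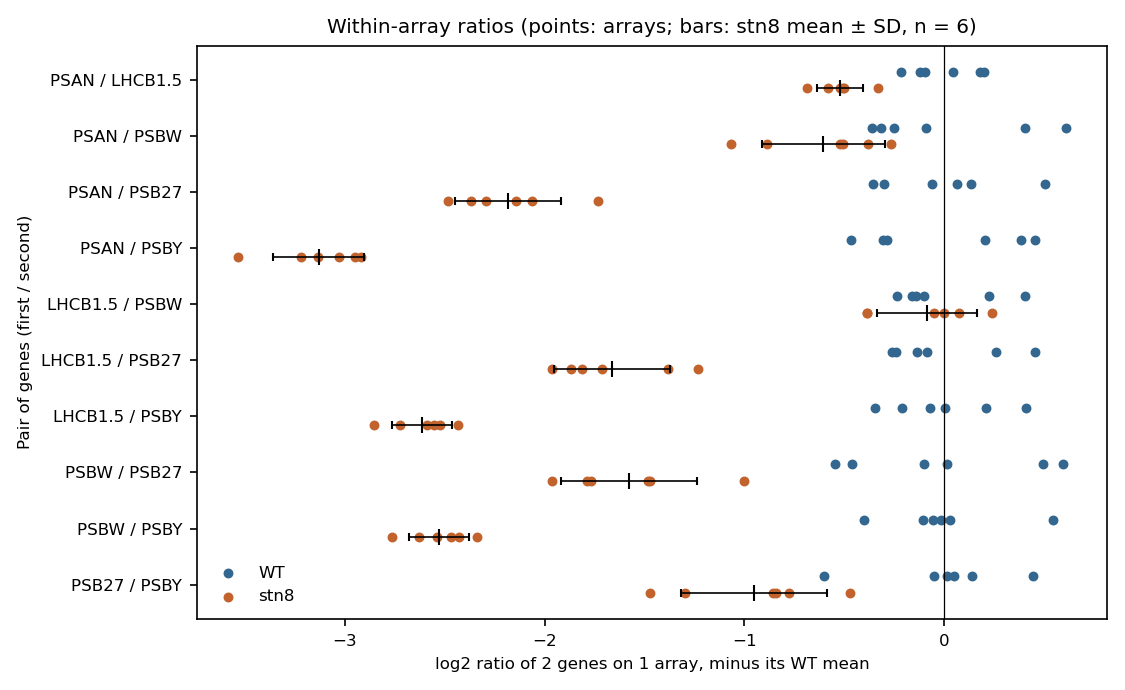
Log2 ratio of 2 genes on the same array, minus its WT mean, for the 10 pairs (first gene over second), with 1 point per array and the stn8 mean with its SD in black. The stn8 points lie left of WT for the 7 pairs without overlap and lie among the WT points for *LHCB1.5* over *PSBW*, whose difference was -0.08.

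The rest of the photosynthetic machinery was thinly covered. The lists held 12 nuclear photosystem I genes, of which 1 (*PSAN*) had a probe of its own, 13 photosystem II genes, of which 3 (*PSBW*, *PSBY* and *PSB27*) had one, and 18 light-harvesting genes, of which 1 (*LHCB1.5*) had one. Of 12 genes for electron transport and ATP synthase and 4 thylakoid kinases and phosphatases 0 had one. The 11 photosystem assembly factors had 2, *LPA19* and *PYG7*, of which 1 was called lower and 1 higher, against 35.8% of all probes called lower and 34.7% called higher. A further 6 loci of these lists were named only by probes that list several genes, and they are not described.

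*LPA19* (AT1G05385) encodes the second PSB27-type protein of Arabidopsis, which takes part in processing of a reaction centre protein during photosystem II assembly. Its intensity was 0.447 to 0.739 in WT, with a median of 0.533, and 0.339 to 0.418 in stn8, with a median of 0.381. The groups did not overlap, but the nearest arrays differed only 1.07-fold. Its fitted log2 fold change was -0.65 ± 0.15 (SE, limma adjusted p = 0.00252), and the call was lost with adjacent arrays averaged (limma adjusted p = 0.0557). The value without WT arrays 5 and 6, the highest for this gene, was -0.42. For *PSB27*, in contrast, arrays 5 and 6 were the lowest of the WT.

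*PYG7* (AT1G22700) encodes a thylakoid protein needed for accumulation of photosystem I. It rose in stn8, while the photosystem I subunit gene *PSAN* fell. WT intensities were 0.659 at the lowest, 0.726 at the median and 0.774 at the highest, and stn8 intensities were 1.68, 1.77 and 1.84. The groups lay well apart, with a mean 2.45-fold higher in stn8 and a fitted log2 fold change of 1.04 ± 0.07 (SE, limma adjusted p = 6.05e-08).

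**Figure D4:**
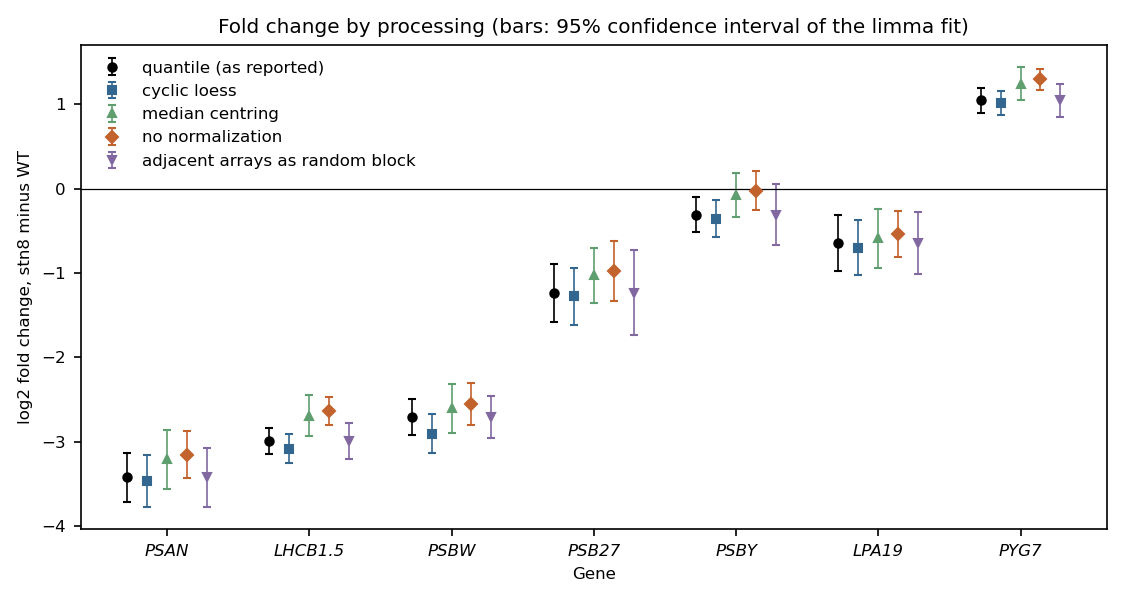
Log2 fold change (stn8 minus WT) with its 95% confidence interval from the limma fit for the 5 genes, *LPA19* and *PYG7*, under 5 ways of processing. The order of the genes is the same throughout, and *PSBY* is the gene whose interval crosses 0 with median centring (-0.08), without normalization (-0.02) and with adjacent arrays as a random block (-0.31).

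For each of the 5 genes, the 3 genes with the most similar profile were taken from 611 other genes measured above 0 on all arrays. Similarity was the root mean square difference of normalized log2 intensity over the 12 arrays, after centring each gene on its own WT mean. A small value thus requires a change of like size, while the pattern within a group may be alike or not. On WT arrays 1 and 5 the centred values were 0.39 and -0.23 for *PSAN*, against -0.12 and 0.17 for its nearest gene. For *PSB27* they were 0.28 and -0.30, against 0.25 and -0.31 for its nearest gene. The nearest to *PSAN* were *AT1G62250* (0.30) and *AT4G32060* (0.31), a gene for a calcium-binding protein of mitochondria, followed by *AT2G40980* (0.39). *LHCB1.5* was 0.34 from *PSAN*, and only 2 of the 611 genes were closer to *PSAN* than that. *LHCB1.5* had *AT1G62250* (0.24), *AT2G40980* (0.28) and *AT4G00170* (0.32) as its nearest, and *PSBW* lay at 0.30 from it. The mean intensity of *AT1G62250*, the nearest gene to both, was 8.05 ± 0.768 (SD, n = 6) in WT and 1.09 ± 0.0571 in stn8.

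The nearest to *PSBW* were *XERICO* (0.21), which encodes a RING-type protein of the abscisic acid response, *AT4G31470* (0.24) and *CUTA* (0.26), which encodes a copper-binding plastid protein. *PSB27* was nearest to *AT2G23160* (0.21), to *NdhN* (0.22), a subunit gene of the chloroplast NADH dehydrogenase-like complex, and to *AT2G25870* (0.23). *NdhN* had a mean intensity of 0.396 ± 0.0638 (SD, n = 6) in WT and 0.189 ± 0.0319 in stn8. For *PSB27* the closest of the other 4 photosystem genes was *PSBY* at 0.73, and 171 of the 611 genes were closer. The nearest to *PSBY* were *LpxA* (0.14), *AT2G23070* (0.14) and *OSB1* (0.15), with fitted log2 fold changes of -0.31, -0.41 and -0.37. *PSAN* and *PSBW* lay 0.60 apart, with 5 of the 611 genes closer to *PSAN* and 14 closer to *PSBW*. Few genes fell as far as *PSAN*, *LHCB1.5* and *PSBW* (17 to 26 of the 692 probes naming 1 gene had a fitted value as low), so a low count of closer genes largely restates the size of the fall.

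**Figure D5:**
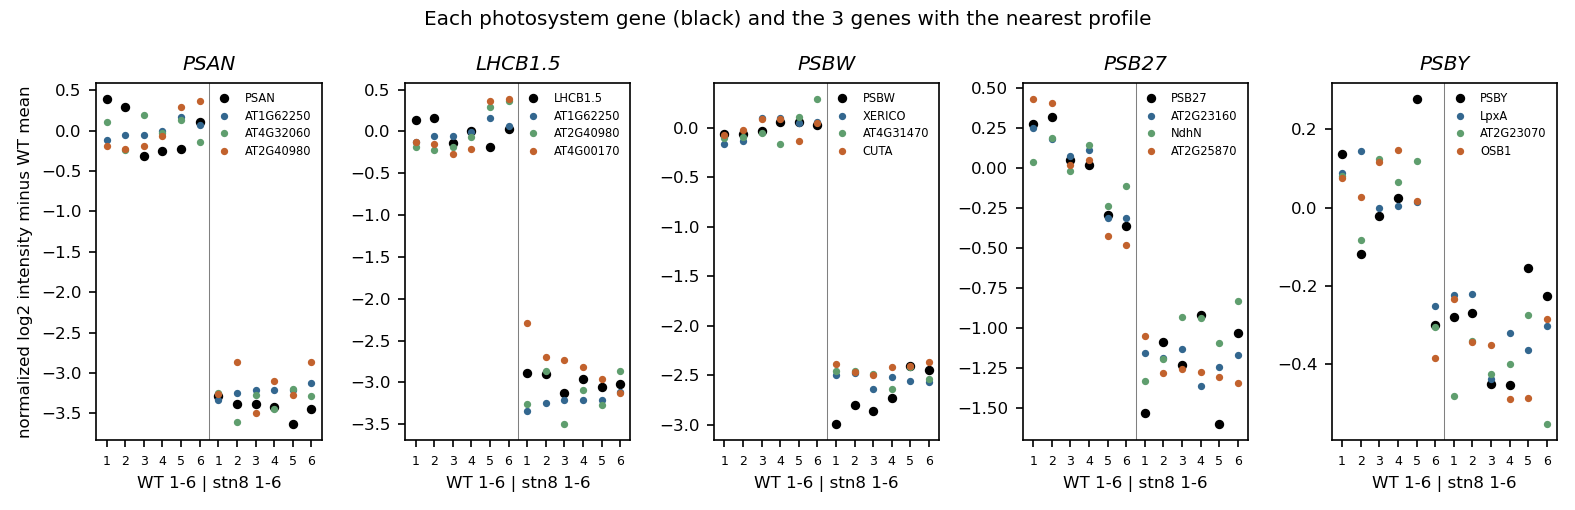
Normalized log2 intensity minus the gene's own WT mean on each of the 12 arrays (WT 1 to 6, then stn8 1 to 6), for each photosystem gene in black and its 3 nearest genes in colour. Vertical scales differ between panels: the stn8 arrays lie more than 2 log2 units below WT for *PSAN*, *LHCB1.5* and *PSBW*, about 1 unit below for *PSB27* and at about the level of WT array 6 for *PSBY*.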

How the data were processed

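Per the labels' titles, 12 samples fall into 6 WT and 6 stn8. The authors' deposited intensity values are linear, and their background correction and scaling are not given in the sources used here. Values of 0 took the array's smallest positive value, and log2 values were quantile normalized. WT and stn8 were compared over 3437 probes with limma 3.58.1 in R 4.3.3 (Benjamini-Hochberg, threshold 0.05), and within-array ratios with exact permutation tests (scipy 1.17.1), with intervals by inverting the test. The limma and ratio steps were tested on simulated data with known changes and independent arrays. The simulation left out normalization, and in its limma part most probes did not change, unlike in these data. Only probes annotated with 1 gene were given a name, and 690 of these 692 matched the TAIR10.1 gene table. Genes named are the 5 photosystem genes, listed genes with a probe of their own and the 3 nearest profiles of each. The genes and lists were chosen with earlier results of these data known. Deviations from the group means correlated between same-numbered WT and stn8 samples (r of 0.17 to 0.33 in 6 pairs, against a limit of 0.1), so the number was treated as a pairing in an alternative fit; samples of different number had -0.28 to 0.29. Alternatives are listed in the closing section. Precision is limited by the number of arrays.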

Additional observations from a re-analysis of the deposited data

Results flagged for a closer look

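Among 14 groups of 6 intensities looked at (the 5 photosystem genes, *LPA19* and *PYG7*, in WT and in stn8), 1 held an array far from the others: *PSAN* was at 0.443 on stn8 array 5, below the next lowest stn8 value of 0.519. Chance flags about 1 in 20 such groups. Without that array the fitted log2 fold change of *PSAN* was -3.37.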

How the results depend on the processing

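The alternatives were no normalization, cyclic loess, median centring, testing without the 33.3% dimmest probes, a pseudocount of 0.0584, an intensity trend with robust variances, the sample number as a replicate block, adjacent arrays averaged or as a random block, each array left out and, added after seeing the data, WT arrays 5 and 6 left out. Probes called numbered 2342 to 2421 without 1 array, 2477 with the replicate block and 2011 with adjacent arrays averaged, against 2421. The replicate block left all 5 genes called lower and changed no limma call of a gene named here. Over all alternatives the log2 fold change ran from -3.51 to -3.16 for *PSAN*, from -3.08 to -2.64 for *LHCB1.5*, from -2.90 to -2.55 for *PSBW* and from -1.39 to -0.97 for *PSB27*, each called lower every time. The count of the 5 genes called lower was 4 where *PSBY* lost its call, which was without normalization (-0.02, limma adjusted p = 0.842), with median centring and with the random block. *PSBY* kept its call in each fit that left out 1 array (-0.37 to -0.25). *LpxA* lost its call without normalization (-0.09) and with median centring (-0.14), and *LPA19* with adjacent arrays averaged. The cause of these losses was not tested. The 9 pair ratios passed the exact test on normalized values, without each array and without WT arrays 5 and 6. With adjacent arrays averaged none could pass, since 3 against 3 gives no exact p below 0.1. The replicate block was not run for the pair ratios.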
